A study of Mus musculus with 13 samples.

Results

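The comparison described here set macrophage-rich against macrophage-poor mouse aortas, chosen by a transcript and not by treatment. Cd68 encodes a lysosomal membrane glycoprotein that is abundant in macrophages. All 13 aorta libraries were ranked by Cd68 CPM, the count over the library's column total times 1000000, and the 4 highest were set against the 4 lowest. The sides thus held 8 of the 13 libraries, and the 5 libraries between them are given beside them. The rich side was WD 1, WD 2, WD 4 and combination 1. The poor side was auranofin 1, atorvastatin 3, WD 5 and WD 3.

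All mice were ApoE-/-, a strain without apolipoprotein E that develops atherosclerosis. Feeding with Western Diet (WD) began at an age of 6 weeks and lasted 16 weeks in every group. The groups were diet alone (WD, 5 libraries), diet with auranofin at 3 mg/kg/day (3 libraries), diet with atorvastatin at 10 mg/kg/day (3 libraries) and diet with auranofin plus atorvastatin (combination, 2 libraries). Auranofin is a gold compound that blocks thioredoxin reductases, and atorvastatin is a cholesterol-lowering statin. The study asked how auranofin affects the course of atherosclerosis. RNA came from whole aorta, so each library mixes intima, media, adventitia and whatever tissue was left attached.

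In an atherosclerotic artery, monocytes enter the intima, become macrophages and take up lipoprotein. Those that store cholesterol esters are called foam cells, and they carry large amounts of lysosomal, lipid-handling and matrix-degrading proteins. Another macrophage population lives in the adventitia of the healthy artery and is marked by genes such as Lyve1, Folr2 and Mrc1. The media is made of contractile smooth muscle, and the aorta is wrapped in fat that in mice is largely brown or brown-like near the thoracic part.

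Libraries held 19703683 to 26079566 counts, and 18055 genes passed the low-count filter. WD 2 and auranofin 2 stood apart from the rest. Mitochondrial genes took 26.9% of counts in WD 2 and 38.8% in auranofin 2, and 9.36% to 24.2% in the other 11 libraries. Their scaling factors by the trimmed mean of M-values (TMM) were 0.639 and 0.629, against 0.801 to 1.23 in the others. The summed level of 8 erythroid genes was 11345 CPM in WD 2 and 9554 in auranofin 2, against 1089 to 6515 CPM elsewhere. Apoe had 6.21 to 26.9 CPM, which checks nothing about the deletion without a wild-type aorta and the deleted exons. Acta2, a marker of aortic smooth muscle, was abundant in all libraries, at 4741 to 22512 CPM. The labels name no batch and do not tie a library to a named mouse.

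Cd68 (ENSMUSG00000018774) chose the sides, so its values are a description. Over column totals the rich libraries had 257 CPM (WD 1), 224 (WD 2), 214 (WD 4) and 189 (combination 1). The poor libraries had 64.4 CPM (auranofin 1), 47.3 (atorvastatin 3), 20.4 (WD 5) and 18.9 (WD 3). Just outside the rich side lay atorvastatin 2 at 169 CPM, and just outside the poor side atorvastatin 1 at 82.2 CPM. Combination 2, auranofin 3 and auranofin 2 lay between those, at 153, 125 and 121 CPM. Raw Cd68 counts were 4329 to 5832 on the rich side and 452 to 1546 on the poor side, so counting error was small beside the gap. The order within the upper libraries depended on the scaling. With TMM-scaled totals WD 2 stood at 350.2 CPM and auranofin 2 at 192 CPM, which would put auranofin 2 on the rich side in place of combination 1 at 160.1 CPM. The 4 poor libraries were the lowest under either scale.

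**Figure D1:**
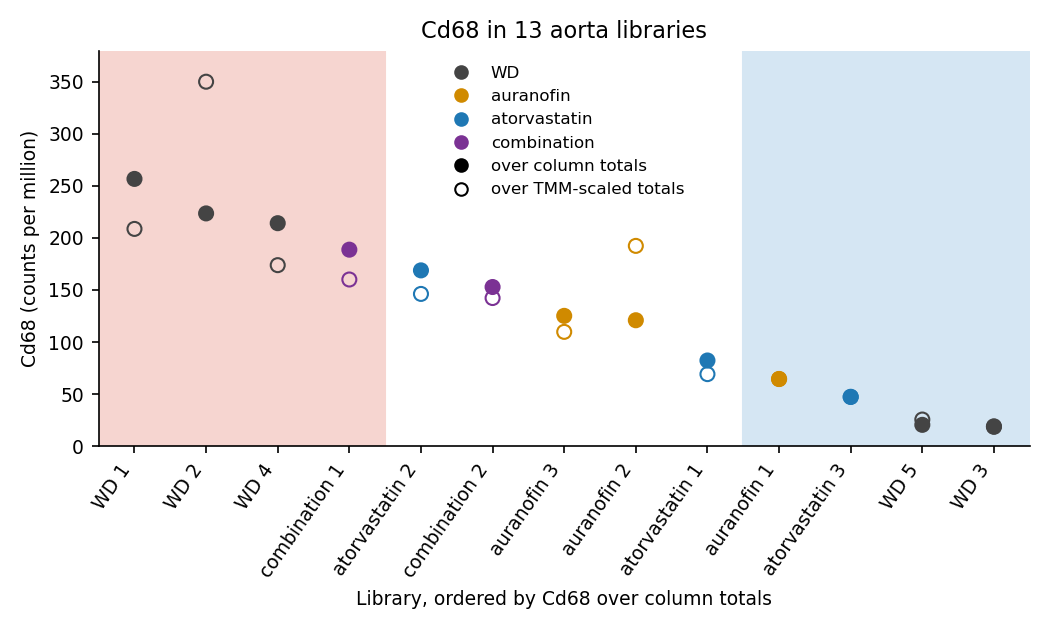
Cd68 in CPM (y axis) for the 13 libraries in order of their column-total value (x axis); filled points use column totals and open points TMM-scaled totals, colours give the treatment, and shading marks the 4 richest and 4 poorest libraries. Filled points fall from 257 to 18.9, and the open points of WD 2 and auranofin 2 lie far above their filled ones.

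The ranking crossed the treatments. WD libraries made up 3 of the 4 rich and 2 of the 4 poor libraries, and both ends of the ranking were WD. Cd68 was 155 ± 139 CPM (TMM-scaled, SD, n = 5) in WD, 122 ± 64.9 (n = 3) with auranofin, 87.5 ± 52.0 (n = 3) with atorvastatin and 151 ± 12.6 (n = 2) with the combination. In exact two-sided permutation tests on log2 CPM against WD, p was 0.804 for auranofin, 0.875 for atorvastatin and 0.857 for the combination, each 0.875 after Benjamini-Hochberg adjustment over the 3 tests. The differences of mean log2 CPM were 0.30, -0.21 and 0.74, whereas edgeR's fitted log2 fold changes were -0.35 (SE 0.78), -0.83 (SE 0.80) and -0.04 (SE 0.89). The sign for auranofin and the combination thus depended on whether log values or counts were averaged. The smallest p these group sizes allow in the permutation tests is 0.0179, 0.0179 and 0.0476. The drug groups lay inside the WD range of 18.5 to 350.2 CPM. These p-values measure only the spread between these samples.

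Because the libraries were picked on a measured value, no p is given for any gene between the sides. A gene is called separated when no library of one side overlaps the other in TMM-scaled log2 CPM and the side means differ by at least 1 on the log2 scale, that is 2-fold. Differences are means of log2 CPM, rich minus poor, with a standard error (SE) from the spread of the 4 libraries on each side. Among 18054 genes with Cd68 set aside, 657 were separated higher in the rich aortas (3.64%) and 97 lower (0.537%), so 754 in either direction (4.18%). In the short gene lists below, 0 or 1 member separated higher is near that 3.64% and is no result about the list. Without the 2-fold limit, 1087 genes were higher with no overlap (6.02%) and 457 lower (2.53%). The median difference over all these genes was 0.00, with quartiles at -0.24 and 0.27. In bulk RNA a higher level of a macrophage transcript can come from more macrophages or from more of that RNA in each, and these cannot be told apart here.

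Promoter sequence is shown for the ranking gene and 4 genes of macrophage digestion and secretion, which differ in whether they hold letters known from myeloid and lysosomal promoters. PU.1, encoded by Spi1, is the factor that directs macrophage development and is known to bind letters such as GAGGAAGT. Factors of the MITF and TFE family, which switch on lysosomal genes, are known to bind CACGTG. Windows from 250 bases before to 50 after the gene start were taken from RefSeq (build GRCm38.p6) and searched on both strands. Each sequence below spans 130 bases before to 20 bases after the start, reads 5′ to 3′ on the gene's strand, and has any match in capitals; on the opposite strand GAGGAAGT reads ACTTCCTC.
Cd68, chr11:69666151-69666300, minus strand, no match: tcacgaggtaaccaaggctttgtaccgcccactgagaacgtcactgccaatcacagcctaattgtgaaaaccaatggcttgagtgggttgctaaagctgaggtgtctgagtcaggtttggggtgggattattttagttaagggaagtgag
Spp1, chr5:104434981-104435130, plus strand: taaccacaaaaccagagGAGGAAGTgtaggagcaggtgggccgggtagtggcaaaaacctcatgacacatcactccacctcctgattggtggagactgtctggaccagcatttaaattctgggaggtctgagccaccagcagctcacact
Mmp12, chr9:7344267-7344416, plus strand: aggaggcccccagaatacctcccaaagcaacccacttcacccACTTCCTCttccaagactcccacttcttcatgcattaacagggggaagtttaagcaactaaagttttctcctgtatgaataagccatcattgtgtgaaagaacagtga
Ctss, chr3:95526656-95526805, plus strand: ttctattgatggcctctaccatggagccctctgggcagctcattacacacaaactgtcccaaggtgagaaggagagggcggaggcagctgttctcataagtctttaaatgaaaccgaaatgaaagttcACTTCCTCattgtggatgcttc
Ctsd, chr7:142387808-142387957, minus strand: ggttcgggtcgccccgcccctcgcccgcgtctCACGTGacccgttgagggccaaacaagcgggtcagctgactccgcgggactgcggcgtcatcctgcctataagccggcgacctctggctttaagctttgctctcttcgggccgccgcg

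The GAGGAAGT letters began 113 bases before the start in Spp1, 88 in Mmp12 and 2 in Ctss. Ctsd held CACGTG at 98 bases before the start and again at 245, outside the printed stretch. GAGGAAGT occurred in 3.28% of the 27025 windows of the table and CACGTG in 7.24%. Among tested genes, of which 12181 of 18049 had a window, the shares were 3.07% and 9.56%. In the list of lysosomal genes, 21 of 26 had a window and 6 of the 21 held CACGTG (28.6%) and 3 held GAGGAAGT (14.3%). Among the 10 genes whose log2 CPM was most like that of Cd68, 8 had a window and 0 of them held either motif. In the core macrophage list 17 of 24 genes had a window, of which 2 held GAGGAAGT and 0 CACGTG. Windows were matched for 485 of the 657 genes separated higher, under the 80% needed, so a comparison of motif shares over that set is void. Matching was also under 80% for the tested genes and the core macrophage list, so their values are a description only. The genes printed above were chosen after their windows were searched, and a match of letters is not a binding site.

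Transcripts of macrophage identity were separated higher in the rich aortas for 22 of 24 listed genes. The list median difference was 2.09 (1.88 without WD 2). Those 22 genes include the surface receptor Adgre1 (F4/80), the integrin chains Itgam and Itgb2, the signalling adapters Tyrobp and Fcer1g, and Spi1. Lyz2, the lysozyme of myeloid cells, had 1977, 3213, 1327 and 1393 CPM in WD 1, WD 2, WD 4 and combination 1. It had 562, 402, 305 and 186 CPM in auranofin 1, atorvastatin 3, WD 5 and WD 3, a difference of 2.46 (SE 0.45). The lowest rich library was thus above the highest poor library by more than 2-fold. Ms4a7, a membrane protein of monocyte-derived macrophages, differed by 3.02 (SE 0.47), at 36.3 to 85.8 CPM against 3.84 to 10.3 CPM. Csf1r, the receptor for the macrophage growth factor, had a smaller difference of 1.23 (SE 0.26), at 86.8, 88.5, 113 and 56.2 CPM against 43.3, 42.4, 27.9 and 30.9 CPM. Mertk, a receptor for dying cells, and Ccr2, the receptor that brings monocytes in, were the 2 listed genes not separated. Mertk had a difference of -0.38 (SE 0.24), and Ccr2 1.43 (SE 0.63) with overlapping sides. Since Cd68 itself marks macrophages, these values are part of what the ranking measured and are no independent support for it.

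Genes of the lipid-laden, TREM2-positive macrophage were separated higher for 15 of 20 listed members, with a median of 1.70 (1.61 without WD 2). Trem2 (ENSMUSG00000023992), a lipid-sensing receptor, had 78.3, 118, 56.1 and 59.7 CPM on the rich side in the order above. On the poor side it had 18.6, 14.2, 6.24 and 5.68 CPM, a difference of 2.91 (SE 0.49). Spp1 (ENSMUSG00000029304), osteopontin, had 2571, 2787, 2099 and 2294 CPM in the rich libraries and 628, 448, 131 and 134 CPM in the poor ones. Its rich libraries lay close together at 2438 ± 303 CPM (SD, n = 4) while the poor ones spread over 335 ± 245 CPM, a difference of 3.19 (SE 0.59). Gpnmb, a lysosomal glycoprotein, had 997 to 1262 CPM against 55.5 to 428 CPM, a difference of 2.92 (SE 0.64). Atp6v0d2, a macrophage and osteoclast form of a proton pump subunit, had 73.1 to 94.7 CPM against 1.77 to 41.9 CPM. The 5 listed genes not separated were Plin2, Cd9, Cd63, Npc2 and Slamf9. Plin2, which coats lipid droplets in many cell types, had a difference of 0.00.

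**Figure D2:**
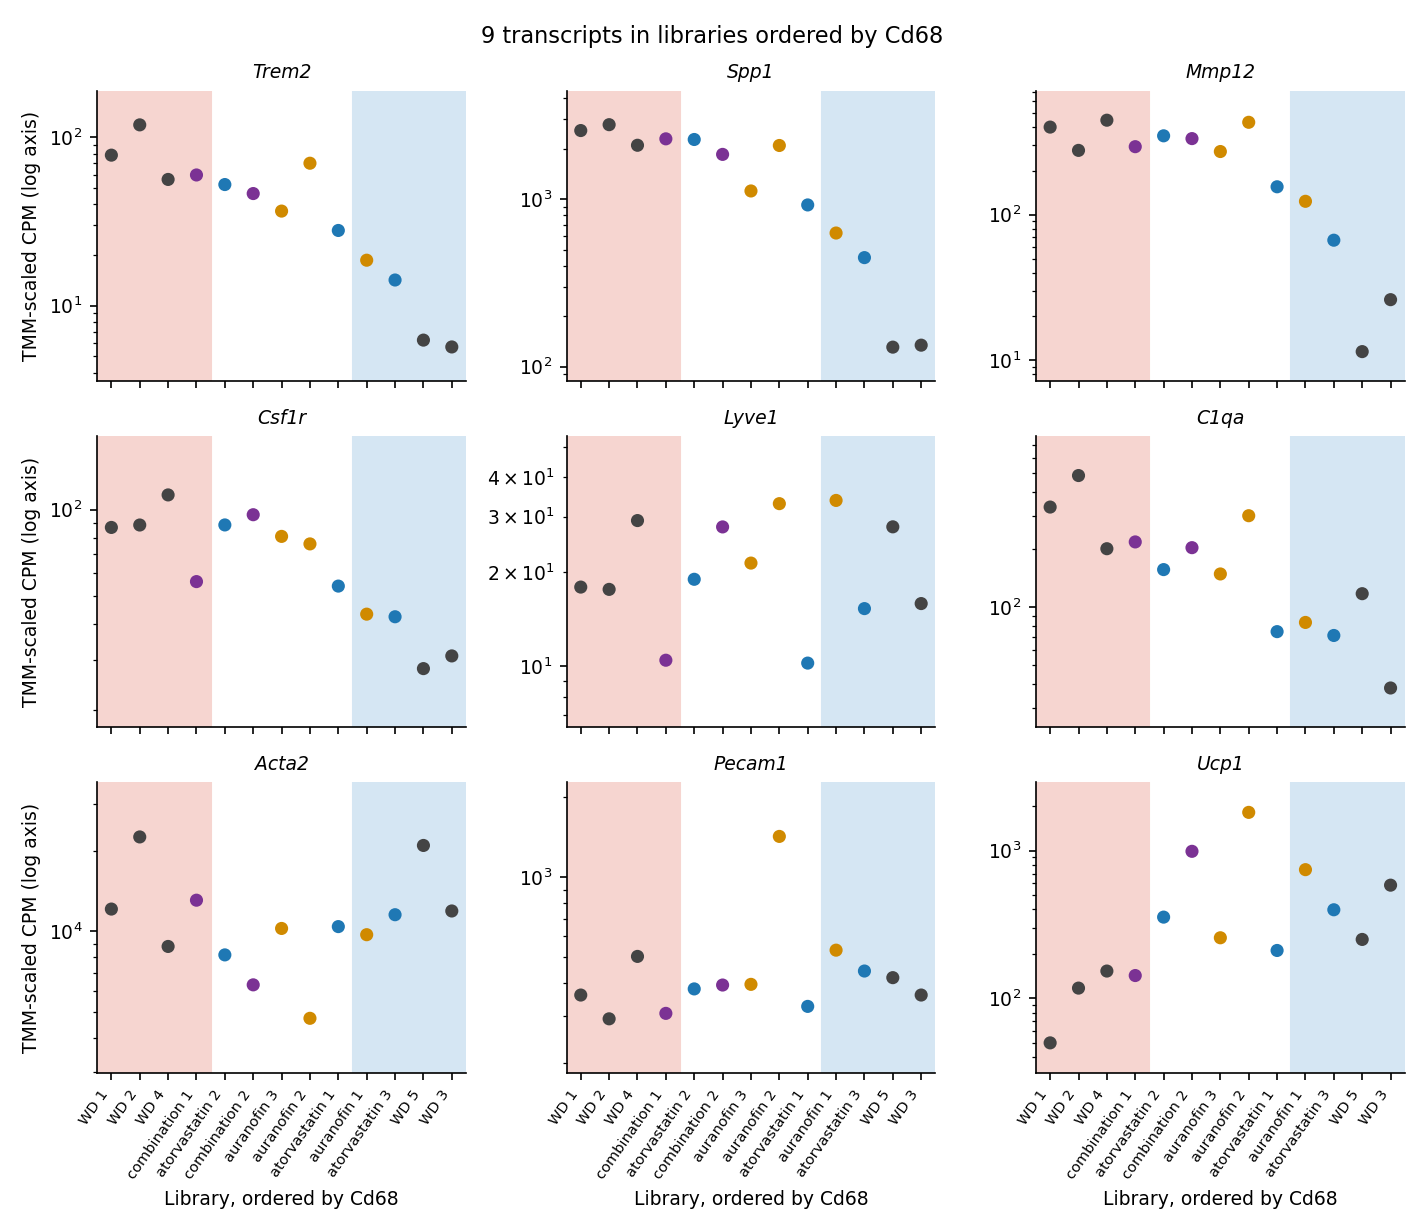
TMM-scaled CPM on log axes (y axis) for 9 genes in the 13 libraries ordered by Cd68 (x axis), 1 point a library coloured by treatment as in the plot of Cd68, with the 4 richest libraries shaded red and the 4 poorest blue. Trem2, Spp1, Mmp12, Csf1r and C1qa do not overlap between the shaded sides, though unshaded libraries reach rich levels (Mmp12 is 432 in auranofin 2), while Lyve1, Acta2 and Pecam1 do overlap, and Ucp1 is lower on the rich side, at 50.03 to 153 against 251 to 744.

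Adventitial resident macrophage genes had smaller differences, with a list median of 0.48. None of the 12 listed genes was separated in either direction, a share near that of all genes (3.64% and 0.537%), and 9 of the 12 had a mean difference above 0. Lyve1, a hyaluronan receptor, had 17.9, 17.6, 29.2 and 10.5 CPM in the rich libraries and 33.8, 15.3, 27.8 and 15.9 CPM in the poor ones, a difference of -0.31 (SE 0.42). The sides overlapped in part, combination 1 lying below all poor libraries and auranofin 1 above all rich ones. With the sides ranked by TMM-scaled Cd68 the difference was 0.10. Mrc1, the mannose receptor, differed by 0.72 (SE 0.51) and Folr2, a folate receptor, by 1.07 (SE 0.39), each with overlap. The summed level of the 12 genes was 1423 to 2220 CPM on the rich side and 1215 to 1347 CPM on the poor side, without overlap.

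A ratio of counts within a library does not depend on scaling, so each macrophage gene was also divided by the Cd68 count of the same library. The ratio shares its denominator with the ranking and is given as a description. Lgals3, galectin-3, followed Cd68 most closely, with 2.19 ± 0.112 counts per Cd68 count in the rich libraries (SD, n = 4) and 2.00 ± 0.127 in the poor. Across all 13 libraries this ratio stayed between 1.77 and 2.35, while Cd68 over column totals ran from 18.9 to 257 CPM. Trem2 had 0.352 ± 0.0258 against 0.285 ± 0.0281, with no overlap between sides, and Ms4a7 0.239 ± 0.0243 against 0.178 ± 0.0254, also without overlap. Lyz2 had 8.74 ± 0.807 against 9.81 ± 1.59, with overlap.

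Other macrophage genes were more abundant per Cd68 count in the poor aortas. Csf1r had 0.416, 0.253, 0.648 and 0.351 counts per Cd68 count in the rich libraries and 0.671, 0.898, 1.10 and 1.67 in the poor ones. Lyve1 had 0.0922 ± 0.0523 on the rich side and 0.700 ± 0.343 on the poor side (SD, n = 4 each), without overlap. Mrc1 had 0.260 ± 0.206 against 0.8286 ± 0.391 and Folr2 0.0146 ± 0.00736 against 0.0415 ± 0.0187, also without overlap. C1qa, a complement chain made by macrophages, overlapped, and its highest ratio of 4.62 was in WD 5. Ctsd, a lysosomal protease that many cell types make, had 4.12 ± 0.683 against 12.4 ± 6.13. These ratios use counts not corrected for length, so they compare libraries within a gene only.

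**Figure D3:**
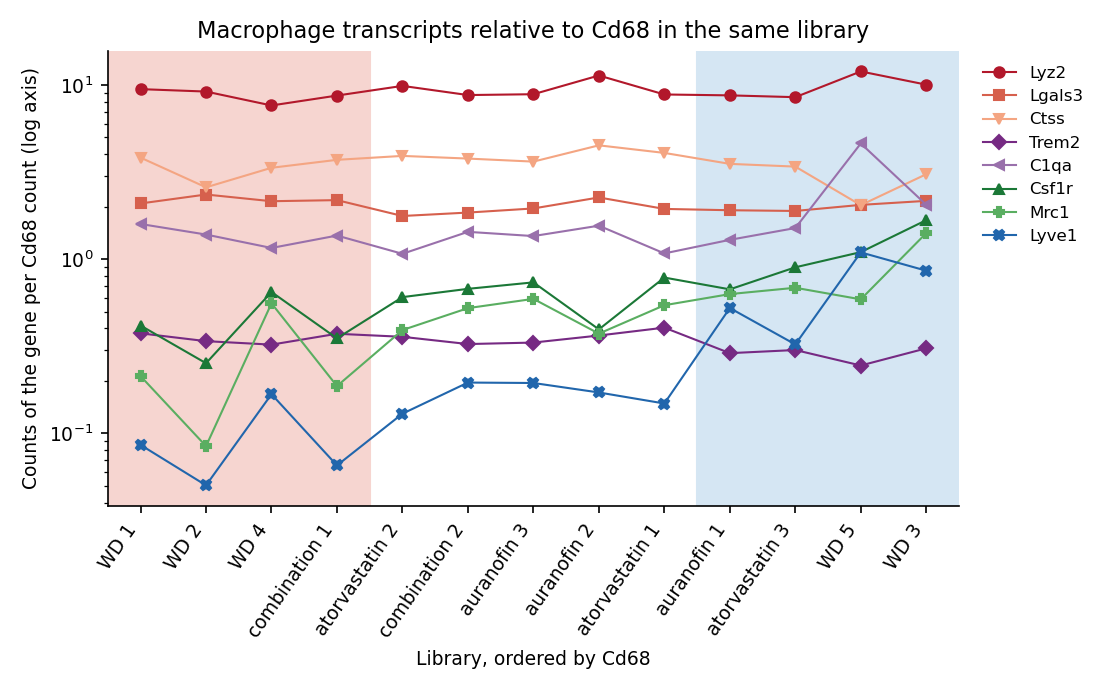
Counts of 8 macrophage genes per Cd68 count of the same library (y axis, log scale) in the 13 libraries ordered by Cd68 (x axis), with the 4 richest libraries shaded red and the 4 poorest blue. Lgals3 stays level between 1.77 and 2.35, while Csf1r, Mrc1 and Lyve1 are higher in all 4 poor libraries than in the 4 rich ones.

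Over all 13 libraries, the 10 genes whose log2 CPM was most like that of Cd68 had Pearson correlations of 0.989 to 0.996 with it. They included Lgals3, Trem2, Ms4a7, Slc7a7 (an amino acid transporter), Fcgr3 (an IgG receptor), Cotl1 (an actin-binding protein), Lyz2, Cd300a and Cd300c2 (paired immune receptors). The points share library scaling, and no p is attached. For Csf1r the same correlation was 0.89 and for Lyve1 0.06.

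The digestive machinery of the lysosome was higher in part. Of 26 lysosomal genes, 9 were separated higher and none lower, with a median of 0.79. The cysteine protease Ctsl had 1204, 942, 926 and 1129 CPM against 518, 363, 301 and 267 CPM, a difference of 1.57 (SE 0.23). Lgmn, which activates cathepsins, had 320.5 to 393 CPM against 92.2 to 169 CPM. Ctss, a cathepsin of antigen-presenting cells, differed by 2.79 (SE 0.56). The transcription factor Tfec differed by 2.09 (SE 0.51), whereas its relatives Mitf and Tfeb had differences of -0.09 and 0.07. Of 17 subunits of the vacuolar proton pump, Atp6v0d2 and Atp6v1b2 were separated, with a list median of 0.42.

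Receptors that take up lipoprotein and transporters that release cholesterol were mixed. Of 11 scavenger receptors, 5 were separated higher. Msr1, the class A receptor for modified lipoprotein, had 34.4, 23.5, 41.1 and 29.0 CPM against 13.2, 7.94, 2.33 and 2.86 CPM, a difference of 2.58 (SE 0.61). Olr1, the receptor for oxidised lipoprotein, differed by 2.65 (SE 0.81). Cd36, a fatty acid and lipoprotein receptor that fat and endothelial cells also make, had 114, 112, 309 and 108 CPM against 331, 179, 90.2 and 192 CPM, a difference of -0.31 (SE 0.53). That difference was 0.24 with the sides ranked by TMM-scaled Cd68 and 0.27 in WD libraries alone. Among 12 genes of cholesterol efflux, Abcg1 (2.00, SE 0.37) and the phospholipid transfer protein Pltp (1.59, SE 0.18) were separated. Abca1 had 122 to 211 CPM against 37.8 to 126 CPM, with overlap. Of 12 genes for clearing dying cells, Cd300lb and Dock2 were separated.

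Cholesterol synthesis genes were not separated in any of 22 tested members, and the list median was -0.31. Insig1, a sterol sensor, had the largest difference of that list at -1.16 (SE 0.34), with overlap.

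Of 15 matrix proteases and inhibitors, 7 were separated higher and none lower, with a median of 0.86. Mmp12, macrophage elastase, had 400.0, 277, 446 and 293 CPM against 124, 66.8, 11.5 and 26.1 CPM, a difference of 3.13 (SE 0.77). Mmp13, a collagenase, differed by 2.61 (SE 0.96), Adam8 by 2.83 (SE 0.73) and the inhibitor Timp1 by 2.18 (SE 0.59). Mmp2 and Mmp9, the gelatinases, were not separated, with differences of 0.81 and -0.16.

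Inflammatory mediators were higher with wider spread. Of 15 inflammasome and cytokine genes, 5 were separated higher and none lower, with a median of 1.42. Il1rn, the secreted antagonist of interleukin-1, had 21.9, 52.2, 42.7 and 18.9 CPM against 8.68, 7.89, 1.06 and 1.92 CPM, a difference of 3.13 (SE 0.81). Nlrp3, the inflammasome sensor, and Tnf were separated with differences of 1.90 and 1.95. Il1b was not separated, because atorvastatin 3 on the poor side had 9.61 CPM, above the 9.56 and 5.18 CPM of WD 1 and combination 1. Il6 overlapped for the same library, at 29.8 CPM in atorvastatin 3 against 0.406 to 0.572 CPM in the other 3 poor libraries. Of 20 chemokines, 7 were separated higher, among them the monocyte attractant Ccl2 at 12.6 to 38.8 CPM against 1.06 to 10.7 CPM.

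Genes for recognising and presenting antigen were higher too. Of 15 complement and Fc receptor genes, 11 were separated higher with a median of 2.02. C1qa had 332, 485, 202 and 219 CPM against 83.3, 71.2, 118 and 37.9 CPM, a difference of 2.02 (SE 0.45). Of 11 genes of MHC class II presentation, 6 were separated, with differences from 1.84 to 1.96 for H2-Aa, H2-Ab1, H2-Eb1 and the invariant chain Cd74. WD 2 held the highest H2-Aa level, 708 CPM, and combination 1 the lowest of the rich side, 155 CPM.

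Other leukocytes were less uniform. Of 11 dendritic cell genes, 5 were separated higher, among them Irf8 (1.93, SE 0.38) and Ccr7 (2.38, SE 0.56). Of 8 tested neutrophil genes, Lcn2, Mmp8 and Csf3r were separated, but the granule genes S100a8 and S100a9 had differences of 0.17 (SE 0.92) and 0.53 (SE 1.13). Lcn2 and Mmp8 are made by other cells as well. Without WD 2 the S100a8 difference was -0.53, and with the sides ranked by TMM-scaled Cd68 it was 0.99. None of 14 T cell genes was separated, with a median of -0.18, and Cd3e stayed between 0.0507 and 0.667 CPM in the 8 libraries. Of 12 B cell genes, Cd22 alone was separated, at 6.90 to 10.95 CPM against 0.817 to 3.80 CPM, while Cd79a and Ms4a1 had differences of -0.75 and -1.02. Auranofin 2, which lay between the sides, stood out for lymphoid genes, with a summed plasma cell level of 1827 CPM against 172 to 346 CPM in all other libraries. With auranofin 2 in place of combination 1, the T cell median was 0.46, the B cell median -0.02 (against -0.65) and the Cd79a difference 0.04.

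Smooth muscle of the contractile type was not separated in any of 16 genes, and the list median was -0.36 (-0.68 with the sides ranked by TMM-scaled Cd68). Acta2, smooth muscle actin, had 12116, 22512, 8788 and 13075 CPM on the rich side and 9722, 11542, 20924 and 11918 CPM on the poor side. Its difference was 0.04 (SE 0.37), and it was -0.33 with the sides ranked by TMM-scaled Cd68. Myh11, the smooth muscle myosin heavy chain, differed by -0.70 (SE 0.50) and by -0.23 without WD 2, the library with 837 CPM against 2735 to 3861 CPM in the other rich libraries.

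Genes that smooth muscle cells and fibroblasts switch on in lesions were higher, 6 of 14 being separated with a median of 1.08. Lum, a collagen-binding proteoglycan, had 1178, 916, 864 and 1006 CPM against 390, 330, 191 and 241 CPM, a difference of 1.83 (SE 0.25). Vcam1, an adhesion molecule for leukocytes, had 774, 296, 464 and 492 CPM against 233, 249, 115 and 117 CPM. Prg4, Timp1, Tnfrsf11b and Col8a1 were the other separated members. None of 24 structural matrix genes was separated, a share near that of all genes (3.64% higher and 0.537% lower). Col1a1 differed by 0.44 (SE 0.23), at 1028 to 1082 CPM against 485 to 961 CPM, without overlap but under the 2-fold limit. Of 15 adventitial fibroblast genes Lum alone was separated.

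Cartilage and calcification genes were higher in some rich libraries and not in others, and none of 17 was separated. Col2a1, the collagen of cartilage, had 363 CPM in WD 1, 71.2 in WD 4 and 41.0 in combination 1, but 0.420 in WD 2. On the poor side it had 16.7 CPM in auranofin 1 and 0 to 0.546 CPM in the other 3 libraries. Its highest value of all, 681 CPM, was in atorvastatin 2, just outside the rich side.

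None of 16 endothelial genes was separated, and the list median was -0.11, or 0.29 with the sides ranked by TMM-scaled Cd68. Of 10 leukocyte adhesion genes, Vcam1, Itgb2, Itgam and Selplg were separated, while the endothelial selectin Sele overlapped. Itgb2 and Itgam were already counted in the core macrophage list and Vcam1 among the lesion genes. Lists that share members are not separate results. Proliferation genes had a median of 0.92, with Cdk1, Aurkb, Top2a and Plk1 separated among 18. Cdk1 had 3.18 to 8.29 CPM against 1.04 to 2.10 CPM. Of 19 interferon-stimulated genes, Oas1a alone was separated, a share near that of all genes (3.64%). Of the 19, 18 had a mean difference above 0, with a list median of 0.60.

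Among 16 targets of the redox factor NRF2, Hmox1 and Ftl1 were separated higher, both genes of iron and heme handling. Hmox1, heme oxygenase, had 54.3, 67.3, 48.8 and 52.9 CPM against 33.5, 24.3, 18.2 and 11.2 CPM, a difference of 1.46 (SE 0.35). Txnrd1, which encodes a target of auranofin, differed by 0.31 (SE 0.19) and Nqo1 by 0.15 (SE 0.29; -0.08 without WD 2), each with overlap.

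**Figure D4:**
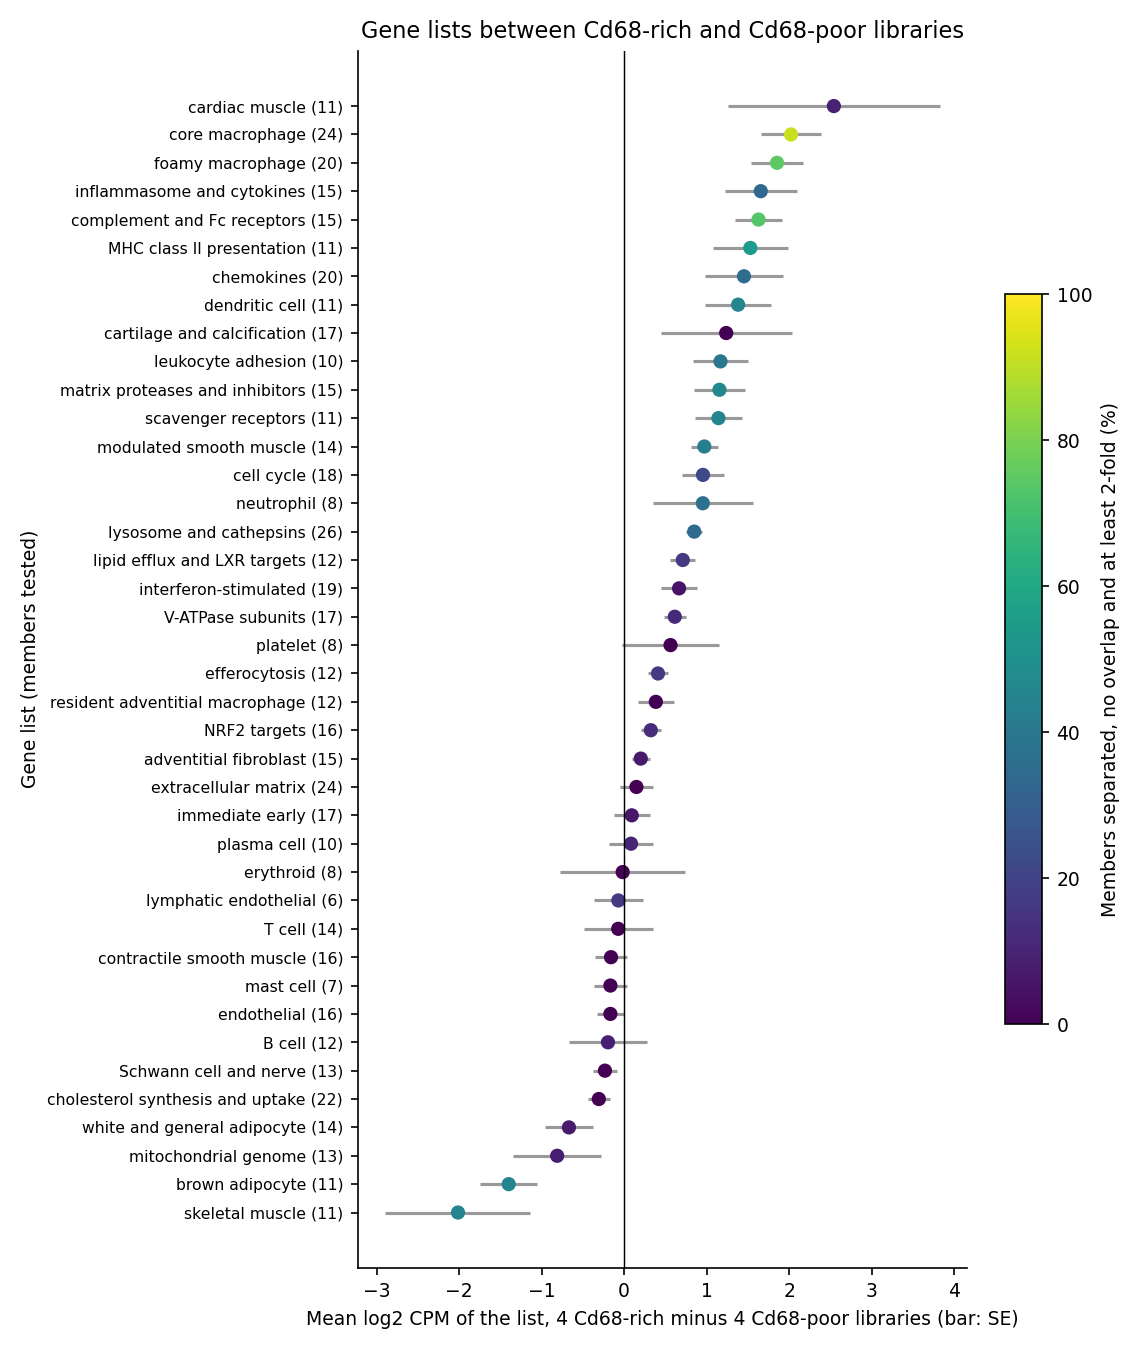
Difference in mean log2 CPM of 40 gene lists between the 4 Cd68-rich and 4 Cd68-poor libraries (x axis, bars are SE), 1 list a row with its number of tested genes, coloured by the percentage of members separated in either direction. The core and foamy macrophage lists carry the highest percentages, 22 of 24 and 15 of 20 genes, while the resident adventitial macrophage list has 0 of 12. The cardiac muscle list lies farthest right with 1 of 11 separated and a wide bar.

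By the rule for named genes, the 15 largest separated differences on the higher side ran from 2.87 to 3.64. Besides Spp1, Mmp12, Il1rn, Atp6v0d2, Ms4a7, Gpnmb and Trem2 they included Cd5l, Cxcl5, Prss46, Gdf3, Grin2a, Npy and Hk3. Cd5l, a secreted protein of macrophages that limits their death, had 436, 187, 120 and 365 CPM against 96.0, 34.9, 4.11 and 10.3 CPM, a difference of 3.64 (SE 1.08). Hk3, the hexokinase of myeloid cells, had 28.8 to 32.8 CPM against 1.32 to 11.4 CPM.

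Genes lower in the rich aortas included those of brown fat. Ucp1 (ENSMUSG00000031710), the heat-producing uncoupling protein, had 50.03, 117, 153 and 143 CPM in the rich libraries and 744, 398, 251 and 584 CPM in the poor ones, a difference of -2.10 (SE 0.51). The fatty acid elongase Elovl3 differed by -2.92 (SE 0.75), its relative Elovl6 by -2.12 (SE 0.55), and the lipid droplet protein Cidea by -1.77 (SE 0.45). Of 11 tested brown adipocyte genes 5 were separated lower (0.537% of all genes were), with a median of -1.37. Their summed level was 209 to 470 CPM on the rich side and 674 to 1375 CPM on the poor side, and none was at 0 throughout a side. Of 14 general adipocyte genes only Fabp4 was separated lower, at 162 to 550 CPM against 633 to 847 CPM, with a list median of -0.83. Adiponectin, Adipoq, had 26.9 to 119 CPM against 76.8 to 137 CPM. The other leading genes by the rule included Acacb and Nat8l, lipid enzymes of fat, and Lncbate10, a long noncoding RNA. The labels do not say how much fat was left on the aortas.

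The lower side depended on whether auranofin 2 was counted among the rich libraries. Auranofin 2 and combination 2, which lay between the sides, had the highest Ucp1 of all libraries, at 1817 and 990.2 CPM, with Cd68 at 121 and 153 CPM. With sides ranked by TMM-scaled Cd68, auranofin 2 replaced combination 1, the Ucp1 difference was -1.18 and the brown adipocyte median -0.79. Then 75 genes were separated lower, of which 11 were among the original 97, that is 11.3% of the original set. On the higher side 585 of the 657 were kept among 775. Leaving out WD 4 or WD 5 gave 248 or 264 genes separated lower and kept 94 or 92 of the 97. Leaving out combination 1 gave 137 and kept 92. Taking 5 libraries a side gave 8, of which 7 were among the 97. Fewer libraries a side make a lack of overlap easier and more make it harder, so these counts move partly by construction.

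**Figure D5:**
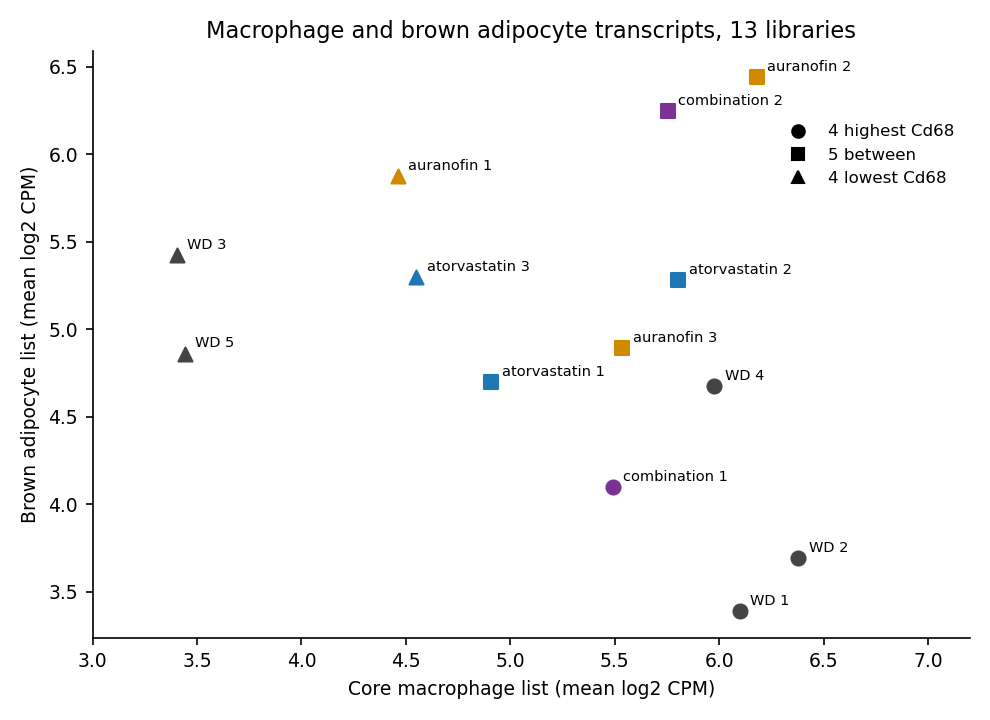
Mean log2 CPM of the brown adipocyte list (y axis) against that of the core macrophage list (x axis), 1 point a library, with colour for treatment as in the plot of Cd68 and shape for the rank by Cd68. The 4 richest libraries lie lowest on the y axis, at 3.39 to 4.67, while auranofin 2 and combination 2 are high on both axes.

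Muscle of other organs also differed between the libraries. The summed level of 11 cardiac muscle genes was 458 CPM in WD 1, 618 in WD 4 and 1700.4 in combination 2, and 23.1 to 57.2 CPM in the other 10 libraries. The summed level of 11 skeletal muscle genes was 166 CPM in WD 3, 65.2 in WD 5 and 167 in auranofin 3, and 6.77 to 42.9 CPM in the others. Among the cardiac genes Myh7 alone was separated higher on the rich side, a share near that of all genes (3.64%). Of the 11 skeletal genes 5 were separated lower (0.537% of all genes were). The summed skeletal levels of the sides overlapped, at 8.69 to 31.4 CPM in the rich and 11.9 to 166 CPM in the poor libraries. Mitochondrial transcripts took 9.36%, 26.9%, 13.5% and 11.3% of counts in the rich libraries and 19.4% to 24.2% in the poor ones. The part of attached fat, muscle and mitochondrial share in the differences between the sides was not tested.

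The 5 libraries that did not define the sides give another view of the same genes. Across atorvastatin 2, combination 2, auranofin 3, auranofin 2 and atorvastatin 1, 89.0% of the 657 higher genes had a positive correlation with Cd68, against 51.1% of all genes. Of the 97 lower genes 88.7% also had a positive correlation there, opposite to their direction between the sides. Without auranofin 2 these shares were 94.5%, 53.8% and 87.6%. Most higher genes thus had the same direction in libraries the sides did not use, and most lower genes the opposite one. These shares are descriptive, since genes of a library are not independent and share its scaling.

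Among the WD libraries alone, where no drug was given, the rich side kept 3 libraries and the poor side 2. These libraries are a subset of the full sides, so the lack of overlap carries over and only the 2-fold limit could fail. Of the 657 higher genes 649 stayed past it, with a median difference of 2.17 against 1.65 for the full sides. Of the 97 lower genes 87 did, with a median of -1.47 against -1.42. The WD libraries were the 3 highest and 2 lowest of the Cd68 ranking, so their Cd68 gap was wider than that of the full sides. The part of that wider gap in the larger differences was not tested. Trem2 differed by 3.74 and Spp1 by 4.22 among WD libraries. Cd68 over column totals ran from 18.9 to 257 CPM in these 5 untreated libraries, the full range of the series.

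Each drug was then compared with WD with and without Cd68 log2 CPM as a covariate, to ask what passes when libraries are compared at equal Cd68. In edgeR's quasi-likelihood test no gene passed an adjusted p of 0.05 (0% in each comparison) for auranofin, atorvastatin or the combination, in either model. With 18055 genes tested, about 1 in 20 would fall under an unadjusted p of 0.05 by chance. The numbers under it were 1173 genes for auranofin, 2648 for atorvastatin and 265 for the combination. With Cd68 in the model they were 1366, 2627 and 488. These numbers rested on single libraries. Without the covariate they ran from 378 (without auranofin 2) to 2130 (without WD 4) for auranofin, from 327 (without atorvastatin 1) to 4169 (without WD 3) for atorvastatin, and from 118 to 823 (without combination 2 or 1) for the combination. With it they ran from 457 to 2916, 394 to 4560 and 195 to 1485. DESeq2 called 2 genes for auranofin, 0 for atorvastatin and 4 for the combination without the covariate, and 4, 0 and 3 with it. At equal Cd68, Ucp1 had a log2 fold change of 2.61 (SE 0.77) with auranofin, adjusted p 0.584 in edgeR. Trem2 was 0.02 (SE 0.15) with auranofin, 0.19 (SE 0.15) with atorvastatin and 0.07 (SE 0.18) with the combination, with adjusted p of 0.959, 0.481 and 0.931 in edgeR. Spp1 with atorvastatin had a log2 fold change of 0.58 (SE 0.26), with an unadjusted p of 0.0465 and an adjusted p of 0.33 in edgeR.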

How the data were processed

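Whole-aorta RNA was poly-A selected and sequenced without strand information on DNBseq, per the labels' protocols. The authors deposited raw counts per gene; per the submitters' processing notes these came from STAR 2.6.1d on GRCm39 and featureCounts of Subread 1.6.3. Libraries were ranked by Cd68 count over column total. Genes were kept by filterByExpr of edgeR 4.0.16 (R 4.3.3) over the 4 treatment groups, and log2 CPM used TMM factors and a prior count of 2. The sides were described without a test, because a measured value picked them. Drug contrasts used edgeR's quasi-likelihood test over all genes, two-sided, with Benjamini-Hochberg adjustment; DESeq2 1.42.0 was an alternative. The members, 40 gene lists, 33 panel genes and naming rule were chosen with earlier results of these data known. Named genes were the panel, the 15 largest separated differences a direction, up to 4 a list and the 10 most like Cd68; any other gene was picked once its values were known, and a few genes under the rule are not reported here. Scripts were tested on simulated data. No 2 libraries were duplicates; the closest pair differed by a chi-square of 17.1 per degree of freedom. Unstranded counts cannot tell a gene from its antisense partner. Figures used matplotlib 3.10.9.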

Additional observations from a re-analysis of the deposited data

Results flagged for a closer look

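Within each side and within WD, the 40 lists and 33 panel genes were examined for a library far from the others by Dixon's criterion. Of these 219 tests 9 were marked, no larger a share than the about 1 in 20 given by chance. Values are log2 CPM, or mean log2 CPM for a list. On the rich side, WD 2 had an NRF2 target list value of 6.26 against 5.76 to 5.84 in the others, and WD 4 had Cd36 at 8.27 against 6.76 to 6.84. On the poor side, auranofin 1 had a lymphatic endothelial value of 3.05 with the next at 2.47, and atorvastatin 3 a cardiac muscle value of 0.60 with the next at -0.06. Also on the poor side, WD 3 had S100a8 at -0.70 with the next at 1.42, and WD 5 had Txnrd1 at 4.89 against 5.50 to 5.55. Among the 5 WD libraries, WD 2 was low in the contractile smooth muscle list, at 7.44 with the next at 8.08, and in Myh11, at 9.71 with the next at 11.42. WD 3 was low in Apoe among WD libraries, at 2.65 with the next at 3.88.

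Myh11 differed by -0.95 between the rich and poor WD libraries and by 0.06 between the rich and poor drug-treated ones, the rich WD libraries all lying below the poor ones and combination 1 above the 2 poor drug-treated ones. That difference was not tested.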

How the results depend on the processing

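The count separated higher stayed within 466 (5 libraries a side) and 985 (3 a side) in every alternative except WD libraries alone, which gave 1313; leaving out 1 library gave 644 to 878. The count separated lower was less stable: 55 with column totals, 191 with 3 a side, 8 with 5 a side and 275 in WD alone. It was 153 with no low-count filter and 219 at 1.5-fold. Leaving out 1 library gave 106 to 264 and kept 82 to 95 of the 97 genes of the main setting. Column totals moved the median difference of all genes to 0.12, and 92.7% of separated genes were then higher against 87.1% with TMM. Of the alternatives run on single genes and on list medians, 577 and 678 moved by less than the spread between libraries, 17 and 42 moved by more, and 0 reversed a called value.

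Drug contrasts called 0 genes in the main edgeR model. Without the Cd68 covariate, no low-count filter gave 13 genes for auranofin, 2 for atorvastatin and 9 for the combination, and DESeq2 gave 2 for auranofin and 4 for the combination; leaving out 1 library gave 0 to 10 for the combination. With the covariate, no filter gave 7 for auranofin and 14 for atorvastatin, DESeq2 gave 4 for auranofin and 3 for the combination, and leaving out 1 library gave 0 to 1 for atorvastatin and 0 to 12 for the combination, the highest without combination 1, which leaves 1 library assumed to vary like the others. The cause was not tested. With the replicate number as block, 0 genes passed in each contrast. Same-numbered libraries correlated at 0.07 on average, against -0.02 for other pairs, and single same-numbered pairs ran from -0.309 to 0.433. With so few libraries these values cannot decide whether the numbers pair the samples, and the labels do not say. The Cd68 difference by treatment changed sign: atorvastatin was 0.013 with column totals, and leaving out 1 library gave -0.28 to 0.78 for auranofin and -0.78 to 0.28 for atorvastatin; for the combination it gave 0.17 to 1.23, with no change of sign. With the replicate block, genes at an unadjusted p of 0.05 numbered 1368 for atorvastatin, or 834 with the Cd68 covariate.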
